A study of Mus musculus with 4 samples.

Results

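Apoe-high monocytes were the cells of the mouse bone marrow monocyte libraries that held the largest share of their transcripts in 7 genes: Apoe, Gngt2, Clec4a3, Pla2g7, Tppp3, Sirpb1c and AF251705. For each cell with more than 200 detected genes, under 5% mitochondrial UMIs and a leading hashtag of at least 70% of its hashtag UMIs, a score was taken as the percentage of its gene UMIs (unique molecular identifiers, each standing for a captured transcript) that came from these genes. The top 10% of cells by score within each library were called Apoe-high, which gave 873 of 8718 cells, and the other 7845 cells of the same mice served as the comparison. The 7 genes were taken from earlier results of these same data, so their high level in the class was set by the choice and is described here with no test.

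The study sorted classical monocytes from the bone marrow of wild-type C57BL/6 mice as Ly6G-, CD11b+, CD115+ and Ly6C-high cells and asked how aging changes them. Each sex made up a single library, and cells of 5 young and 5 old mice were told apart in it by DNA-barcoded hashtag antibodies, so sex, library and sequencing experiment cannot be told apart. The males were 14 weeks (young) and 27 months (old) of age and the females 15 weeks and 26.5 months; all were wild type, and the labels name no treatment. The class held 373 of 3923 cells of young females, 377 of 3569 of old females, 67 of 700 of young males and 56 of 526 of old males, and the libraries shared 0 cell barcodes.

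Apoe encodes apolipoprotein E, a secreted protein that carries cholesterol and other lipids and is taken up through receptors of the LDL receptor family. Macrophages and maturing monocytes make it, and its gene is a target of the liver X receptors, which sense cholesterol derivatives. Classical Ly6C-high monocytes leave the marrow through Ccr2, and some of them turn, with the nuclear receptor Nr4a1, into Ly6C-low monocytes that patrol vessels and carry much Cx3cr1, Treml4 and Ace. Of the other genes of the score, Pla2g7 encodes the platelet-activating factor acetylhydrolase, Gngt2 a gamma subunit of heterotrimeric G proteins, Clec4a3 a C-type lectin receptor, Sirpb1c a member of the signal regulatory protein family and Tppp3 a tubulin-binding protein.

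Apoe lies on chromosome 7 of the mouse build GRCm38 (chr7:19696109-19699188, minus strand). Upstream sequence was available from RefSeq (GRCm38.p6) for 4 of the 7 genes, Apoe, Clec4a3, Pla2g7 and Sirpb1c, and the 250 bases before each start are shown because these genes were the ones whose transcripts defined the class. The windows are chr7:19699189-19699438 (minus strand), chr6:122952265-122952514 (plus), chr17:43568201-43568450 (plus) and chr3:15848488-15848737 (minus). Capitals mark matches to 3 motifs searched on both strands: TTGCNNAA (C/EBP), AGGAAG (PU.1) and GGGCGG (Sp1).
Apoe: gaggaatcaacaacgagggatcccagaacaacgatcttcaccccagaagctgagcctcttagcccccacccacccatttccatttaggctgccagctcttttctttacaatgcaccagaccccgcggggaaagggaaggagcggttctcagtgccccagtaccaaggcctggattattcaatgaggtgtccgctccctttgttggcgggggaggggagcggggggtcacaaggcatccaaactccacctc
Clec4a3: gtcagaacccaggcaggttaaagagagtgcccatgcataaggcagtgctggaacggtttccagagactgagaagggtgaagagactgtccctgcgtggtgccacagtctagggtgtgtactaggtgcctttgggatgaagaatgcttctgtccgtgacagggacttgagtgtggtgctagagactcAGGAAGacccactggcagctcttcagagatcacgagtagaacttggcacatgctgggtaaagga
Pla2g7: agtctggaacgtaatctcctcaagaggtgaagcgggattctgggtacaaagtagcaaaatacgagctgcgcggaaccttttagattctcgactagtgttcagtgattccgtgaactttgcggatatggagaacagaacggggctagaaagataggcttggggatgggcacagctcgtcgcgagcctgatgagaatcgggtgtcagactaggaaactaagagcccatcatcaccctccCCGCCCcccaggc
Sirpb1c: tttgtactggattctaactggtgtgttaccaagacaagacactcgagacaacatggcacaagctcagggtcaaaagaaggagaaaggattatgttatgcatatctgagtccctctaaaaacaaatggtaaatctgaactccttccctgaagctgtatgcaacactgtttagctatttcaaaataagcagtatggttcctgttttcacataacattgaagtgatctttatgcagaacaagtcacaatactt
The PU.1 letters occurred in the Clec4a3 window and in 29.5% of 32851 mouse promoters of the same length, the Sp1 letters in the Pla2g7 window and in 32.7%, and the C/EBP letters in 0 of the 4 windows and in 9.56% of promoters. A match is a match of letters only.

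The members were shallower than the other cells. Their median was 6978 gene UMIs against 11438 in the female library and 3534 against 4718 in the male library. Summed over a mouse, the members gave 125108 to 1215520 UMIs in females and 15728 to 85312 in the 9 males that had any. All levels below are gene counts per 1000000 UMIs of the summed cells of a mouse (CPM), so they are relative to a cell population's transcripts and not per cell, and intervals and limits cover counting error only. Old male 4 had 49 cells and 0 members and entered no fit of the members. The non-member cells of several males carried neutrophil genes, with sums of 4732 CPM in old male 4, 4547 in young male 2, 2191 in old male 3, 2077 in young male 3 and 1971 in old male 2, against 42.8 to 607 CPM in the other 5 males. Old female 1 had 21 members of 503 cells and the highest Cd74 of all females in both classes.

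The cut fell within a continuous range of scores and not at a gap. In females the lowest member had 0.411% of its UMIs in the 7 genes and the highest non-member 0.410%, the 10th cells on either side stood at 0.415% and 0.406%, and the median over all cells was 0.0459%. In males the corresponding values were 0.599% and 0.598% at the cut, 0.653% and 0.571% for the 10th cells and 0.0648% for the median. Within 10% of the cut value lay 223 female cells, 105 of them members, and 37 male cells, 13 of them members. The median member scored 0.596% in females and 0.832% in males, and 7.34% and 19.9% of all cells scored 0. Apoe-high is therefore used here as a range of a score, and whether the class forms a separate group of cells was not tested.

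Apoe made up most of the score. In the median female member it supplied 64.7% of the UMIs of the 7 genes and in the median male member 61.5%, and 563 of 750 female members had over 50% of these UMIs in Apoe. The members of the 5 young females held Apoe at 4471, 4937, 4484, 4589 and 4469 CPM and those of the 5 old females at 3694, 3429, 4443, 4176 and 3606 CPM. Every old female was below every young female, with means of 4589.9 ± 200.4 and 3869.5 ± 423 CPM (SD, n = 5 each); in the other cells Apoe stood at 209 ± 42.7 and 124 ± 46 CPM. Of the remaining 6 genes, Pla2g7 stood at 201, 237, 256, 199.9 and 164 CPM in the members of young females and 426, 484, 279, 323 and 459 CPM in those of old females. AF251705 stood at 311, 291, 248, 302 and 235 CPM and 420.3, 509, 317, 359.9 and 423 CPM. Both genes were higher in every old than in every young female, the opposite order to Apoe. The members were chosen on the summed share of the 7 genes. That sum lay between 6280 and 7130 CPM over the members of the female mice, and the ages overlapped. Less Apoe at a similar sum leaves more of it to the other genes, so the opposite order is in part set by the choice. How far age adds to it was not tested. The means of young and old were 585 ± 87.6 and 864 ± 294 CPM for Gngt2, 629.6 ± 51.7 and 672 ± 90.9 for Clec4a3, 318 ± 60.2 and 329.8 ± 34 for Sirpb1c and 68.1 ± 22.6 and 79.7 ± 40.7 for Tppp3 (SD, n = 5 each), and the ages overlapped in each of these 4. In male members Apoe was 5538, 6873, 7961, 4387 and 7064 CPM in the 5 young and 5744, 5117, 2359 and 2689.6 CPM in the 4 old mice with members, and Gngt2 was 1286, 705, 810.1, 699 and 628 and 1055, 1309.9, 3229.8 and 1403 CPM. Young and old males overlapped for both genes.

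Ranking without Apoe, which supplied most of the score's UMIs, changed the members more than ranking without any other of the 7 genes. When the cells were ranked on the 6 genes without Apoe, 437 of 750 female members and 67 of 123 male members stayed in the top 10%, whereas leaving out any other single gene kept 687 to 728 female members. In the young females 45.5%, 49.2%, 52.6%, 47.8% and 39.7% of the members stayed and in the old females 71.4%, 84.4%, 68.7%, 64.5% and 79.5%. Each old female kept a larger share than each young female. The members that stayed, those that dropped out, the cells that entered and the cells in neither set of females held Ace, which encodes the angiotensin-converting enzyme, at mean levels of 78.7, 21.1, 53.8 and 1.12 CPM. In the same order Nr4a1 stood at 60.9, 22.3, 66.3 and 7.66 CPM and Ly6c2, which encodes the Ly6C antigen, at 1436, 2159.8, 1692 and 2518 CPM. Cd74, the invariant chain of MHCII, was 7848, 8027, 4088 and 821 CPM. The female members held by Apoe alone thus had less Ace and Nr4a1 and more Ly6c2 than those that stayed, and about as much Cd74; these sets were cut from the score and carry no test. In males these sets held 67, 56, 56 and 1047 cells, and their means were taken over 7, 5, 6 and 10 mice. Old males 3 and 5 kept 100% of their members and add nothing to those that dropped out, so the sets differ in mice and ages. Ace stood at 72.8, 33.2, 39.4 and 0.981, Nr4a1 at 68.1, 63.2, 87.4 and 15.1, Ly6c2 at 778, 1039.6, 1304 and 2740.2 and Cd74 at 11492, 10253, 11489 and 1041 CPM in that order. There Nr4a1 was about level between the members that stayed and those that dropped out, and the cells that entered held as much Cd74 as those that stayed.

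The members carried monocyte genes, as their label says. Csf1r, the receptor for M-CSF that marks monocytes and is the CD115 of the sort, had a lowest of 536, a median of 641 and a highest of 886 CPM over the 10 female mice, and Lyz2, the lysozyme of myeloid cells, had a lowest of 32432, a median of 45872 and a highest of 52091 CPM. In the other cells Csf1r had a lowest of 207, a median of 221 and a highest of 234 CPM, all below the members. Summed over 9 neutrophil genes the female members stood between 12.3 and 41.2 CPM (median 32), with Lcn2 as the most abundant gene and Mmp9 and Ly6g at 0, and the other cells between 77.6 and 1421 CPM (median 193). The 6 basophil genes were all at 0 in female members, and the 6 T and NK cell genes measured stood between 0 and 3.29 CPM (median 0). The 6 B cell genes measured stood between 7.99 and 50.9 CPM (median 26.8), nearly all of it Cd79b, with Pax5 and Ms4a1 at 0. The 7 conventional dendritic cell genes stood between 16.6 and 104 CPM (median 62.9) in members and between 8.85 and 19 CPM (median 12.2) in the other cells; Batf3 made up most of it and Xcr1, Ccr7, Fscn1 and Cd8a were at 0. The 6 plasmacytoid dendritic cell genes stood between 66.4 and 178 CPM (median 100.2) against between 37.4 and 62.5 CPM (median 50.6), most of it Tcf4, and the 6 erythroid genes between 0 and 169 CPM (median 18.9) against between 4.5 and 8.33 CPM (median 6.68).

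Of the marker lists of other cell types, that of macrophages stood highest in the members. The sum of the 14 genes measured lay between 216 and 1165 CPM (median 373) in female members and between 102 and 148 CPM (median 129) in the other cells, with Hmox1, which encodes heme oxygenase 1, the most abundant and Timd4 and Cd5l at 0. C1qa, a complement gene of tissue macrophages, had a lowest of 0, a median of 6.56 and a highest of 242 CPM over the female mice, and old female 2 was the highest. In males the macrophage sum lay between 171 and 821 CPM (median 434) in members and between 58.8 and 194 CPM (median 121) in the other cells. The basophil sum of male members lay between 0 and 191 CPM (median 52.4), and that of the other male cells between 19.6 and 620.2 CPM (median 51.2), with Mcpt8 the most abundant gene in members and Cpa3 and Gata2 at 0. Few of these genes were abundant enough for the test: in females 3 of 3 tested, Hmox1, Adgre1 and Axl, were higher in members, and in males 2 of 2, Hmox1 and Adgre1. The part of macrophage genes in the results was not tested.

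Members and other cells were compared within each mouse by edgeR's quasi-likelihood test on UMI counts summed per mouse and class, with the mouse as a block and the 7 genes left out; a gene was called at a Benjamini-Hochberg adjusted p under 0.05. In females 5274 of 8537 genes (61.8%) were called, 2578 of them higher (30.2%) and 2696 lower (31.6%) in the members, and in males 973 of 2401 (40.5%), 482 higher (20.1%) and 491 lower (20.4%). Of the 2399 genes tested in both sexes, 945 were called in both, 459 higher in both, 484 lower in both and 2 in opposite directions. With so many genes called, the size of a difference says more than its call. The members were chosen from the same cells, so these calls list the genes that went with the score. Where the members were chosen on 50% of each cell's UMIs and tested on the other 50%, 4008 of 7206 female genes (55.6%) and 480 of 1327 male genes (36.2%) were called. With cells thinned to 2000 UMIs the counts were 2163 of 4841 (44.7%) and 372 of 1448 (25.7%), and with members chosen on the 6 genes without Apoe 5338 of 8509 (62.7%) and 871 of 2279 (38.2%). The direction was the same in every mouse for 2814 of 8537 genes (33%) in females and 517 of 2401 (21.5%) in males.

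Genes of cell division were lower in the members, and the G2 and mitosis list had the lowest median of all the lists. Of 12 G2 and mitosis genes all 12 were lower in female members (median log2 fold change -4.37, against -0.01 over all genes tested), and of 12 S phase genes all 12 were lower (median -3.30). Mki67, the proliferation antigen Ki-67, had a lowest of 0, a median of 11.3 and a highest of 24.6 CPM over the female mice in the members and a lowest of 265, a median of 294 and a highest of 356 CPM in the other cells. The classes did not overlap, and the log2 fold change was -4.59 ± 0.11 (SE), adjusted p = 2.23e-35. The 10 largest falls found in every mouse compared of both sexes with a mean of at least 20 CPM were Ccna2 (-4.65 ± 0.13, here and below the log2 fold change ± SE), Cdk1 (-4.62 ± 0.12), Mki67, Nusap1 (-4.53 ± 0.14), 2810417H13Rik (-4.51 ± 0.09), Birc5 (-4.49 ± 0.11), Rrm2 (-4.47 ± 0.14), Tk1 (-4.45 ± 0.16), Stmn1 (-4.41 ± 0.07) and Top2a (-4.36 ± 0.09), genes of cyclin control, chromosome segregation and DNA synthesis. In the members of all 9 males Cdk1 and Nusap1 had 0 UMIs.

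Cells low in the score were deep and rich in division genes, so the members were compared again, as a choice made after seeing the data, with the 50% of cells of each library that had the smallest share of UMIs from the 12 mitotic and 12 S phase genes. These held 747 of 750 female members and 2999 other female cells, and 114 male members and 499 other male cells. Since these genes chose the cells, their own loss of difference there is no result. There 1428 of 7237 female genes (19.7%) and 157 of 1196 male genes (13.1%) were called. Mki67, a division gene as well, then stood at 10.7 ± 6.94 CPM in members and 15.6 ± 2.68 CPM in the other cells, given with no test. Limiting both classes to the middle 50% of the members' depth (5963 to 7970 UMIs in females) left 374 members and 1333 other cells, with too few members for the fit in old female 1 and in 4 males, and gave 819 of 5278 genes called (15.5%) in females and 54 of 636 (8.49%) in males. The values among cells low in division genes are given beside the main ones below.

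**Figure D1:**
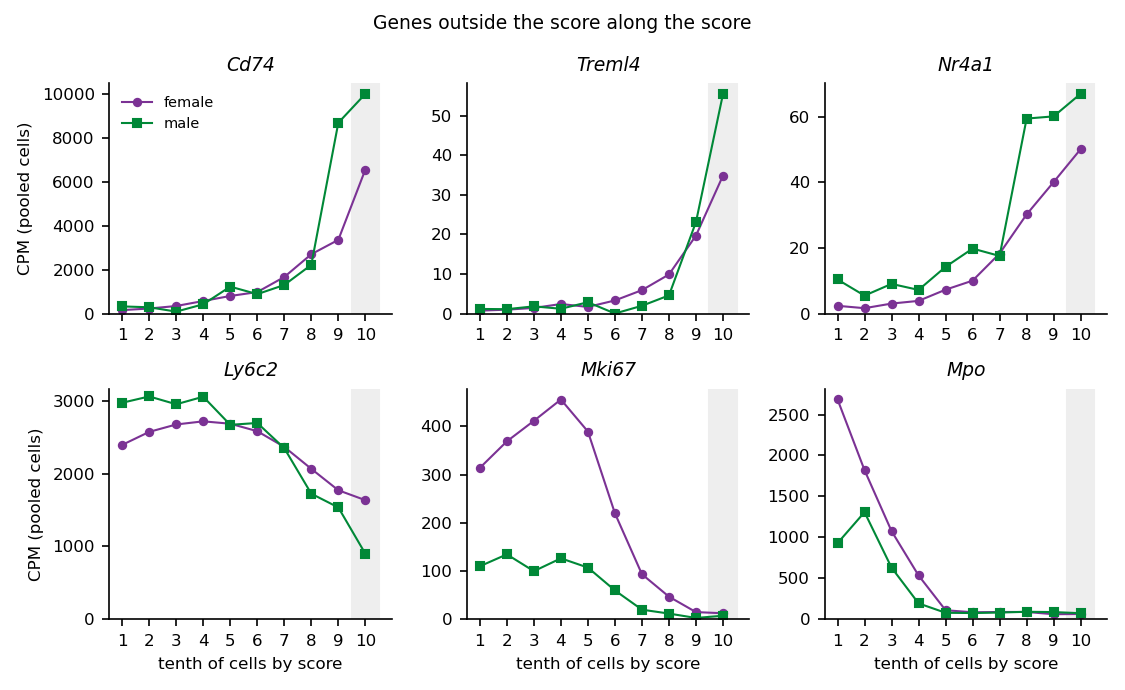
Level of 6 genes in CPM (vertical axis, in the pooled cells) across 10 groups of cells of rising score (horizontal axis), with a line for each sex. A grey band lies over group 10, which nearly matches the Apoe-high monocytes (749 female and 122 male cells, against 750 and 123 members). In females Cd74 went from 154 CPM in group 1 to 3358 in group 9 and 6563 in group 10, Mki67 from 314 to 456 in group 4 and 12.1 in group 10, and Mpo from 2686 to 62.5.

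Genes of Ly6C-low monocytes were higher in the members although the sort had kept Ly6C-high cells. Of 12 tested genes of this list 10 were higher and 2, Spn and Pecam1, lower (median log2 fold change 1.46); among cells low in division genes 10 of 12 were higher and 0 lower (median 0.81). Treml4, a receptor of late non-classical monocytes, had a lowest of 15.2, a median of 30.6 and a highest of 107 CPM in the members and a lowest of 1.48, a median of 3.68 and a highest of 4.99 CPM in the other cells of the 10 females. The classes did not overlap, and the log2 fold change was 3.31 ± 0.21 (SE), or 1.99 among cells low in division genes. No sum of the other cells reached the level that the test's filter on low counts asks for. Treml4 was thus tested only through its level in members, and its call is no result, though the 10 higher genes of the list include it. Nr4a1, the nuclear receptor that Ly6C-low monocytes need, had a lowest of 5.53, a median of 43.8 and a highest of 75 CPM against a lowest of 4.72, a median of 8.06 and a highest of 14.6 CPM (2.48 ± 0.14 on the log2 scale, 1.03 among cells low in division genes). The members of old female 1 had the lowest Nr4a1 and lay within the range of the other cells, and those of the other 9 females lay above it. Cx3cr1, the fractalkine receptor, had a lowest of 210.1, a median of 302 and a highest of 384 CPM against a lowest of 55.9, a median of 89.6 and a highest of 103 CPM (1.86 ± 0.05 on the log2 scale, 0.69 among cells low in division genes), and its log2 fold change was 1.42 ± 0.17 in males. Ace was too low for the test and had a lowest of 0, a median of 47.6 and a highest of 197 CPM in members against a lowest of 1.25, a median of 2.5 and a highest of 3.55 CPM.

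Ly6C-high genes did not move together. Of 14 tested, 8 were higher, 2 lower and 4 not called (median 0.29), and among cells low in division genes 4 were higher and 8 lower (median -0.24). Ly6c2 had a lowest of 1343, a median of 1640.3 and a highest of 2339 CPM in female members and a lowest of 2246, a median of 2388 and a highest of 2957 CPM in the other cells. Its log2 fold change was -0.51 ± 0.04 in females, -0.37 among cells low in division genes, and -1.44 ± 0.10 in males, and it was lower in the members of all 10 females and all 9 males. In males no member sum reached the lowest sum of the other cells. Ccr2, the receptor for exit from the marrow, was higher in female members (1.14 ± 0.04, 0.28 among cells low in division genes), as was Lyz2 (1.09 ± 0.03, 0.17). Vcan, which encodes the proteoglycan versican, was higher against all other cells (0.45 ± 0.10) and lower among cells low in division genes (-0.81), and Chil3, a chitinase-like protein, likewise (0.13 and -0.29). Cxcr4, the receptor that holds cells in the marrow, was lower (-1.35 ± 0.09), but the value turned to 0.14 among cells low in division genes, where it was not called.

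The MHCII list had the highest median of the lists with more than 1 tested gene. Of 11 tested MHCII and dendritic-like genes, 10 were higher and 1, Cd209a, was not called (median 2.13, and 1.50 among cells low in division genes, with 9 of 11 higher). Over single female cells the summed list had a median of 2709 CPM in members (quartiles 1049 and 12004) and 701 CPM in other cells. The mean over the mouse sums was 14607 and 2061 CPM, so members with high levels weigh heavily in the sums given here. Cd74 had a lowest of 2463, a median of 5809 and a highest of 19183 CPM in female members and a lowest of 261, a median of 409 and a highest of 4410.5 CPM in the other cells. Its log2 fold change was 3.50 ± 0.10 (SE), adjusted p = 1.60e-32 in females, 2.08 among cells low in division genes, and 2.95 ± 0.17 in males. The ranges of the classes overlapped only because the other cells of old female 1 stood at 4410.5 CPM, above the members of young females 1, 2 and 5, and in each of the 10 mice the members were higher than its other cells. The genes of the MHCII chains stood at log2 fold changes of 3.82 ± 0.13 for H2-Aa, 3.80 ± 0.12 for H2-Ab1 and 3.90 ± 0.13 for H2-Eb1, or 2.48, 2.45 and 2.44 among cells low in division genes. Cd209a, the lectin that marks dendritic-like monocytes, was -0.27 ± 0.20 (SE), adjusted p = 0.233. Of 13 MHCI and immunoproteasome genes 11 were higher and 0 lower (median 0.84, 0.39 among cells low in division genes), among them H2-K1 (0.95 ± 0.04), H2-D1 (0.84 ± 0.03) and B2m (0.96 ± 0.04).

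All 12 type I interferon response genes were higher in female members (median 1.81), and 10 of 12 among cells low in division genes (median 0.64); in males 6 of 6 tested were higher (median 2.10). Ifit3, an interferon-induced antiviral gene, was among the 10 largest rises found in every mouse compared of both sexes with a mean of at least 20 CPM. Its log2 fold change was 3.05 ± 0.16 in females and 3.89 ± 0.36 in males, or 1.40 among female cells low in division genes. The transcription factor gene Irf7 (1.83 ± 0.06, 0.70) was higher as well. The other 9 of those largest rises were Cd74, Rtp4 (2.69 ± 0.08), Marcks (2.65 ± 0.07), Gm5150 (2.45 ± 0.10), Sirpb1b (2.38 ± 0.10), Gm9733 (2.35 ± 0.07), Metrnl (2.25 ± 0.08), Fam26f (2.18 ± 0.12) and Fyb (1.99 ± 0.05). Rtp4 and Fam26f are interferon-inducible, Marcks encodes a substrate of protein kinase C at the membrane, Fyb an adaptor of integrin signalling, and Metrnl a secreted factor. Among cells low in division genes the 10 genes kept log2 fold changes between 0.82 (Sirpb1b) and 2.08 (Cd74).

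Genes of surface receptors were mostly higher in the members. All 5 Fc receptor genes were higher (median 1.74, 0.77 among cells low in division genes, where all 5 were again called), for example Fcgr2b, the inhibitory receptor for IgG (1.74 ± 0.06), and Fcer1g, the signalling chain (0.68 ± 0.03). Of 15 SIRP, CD300 and paired receptor genes 13 were higher and 2, Treml2 and Lilra6, lower (median 1.17, 0.36 with 10 higher and 2 lower among cells low in division genes). Of 9 C-type lectin genes 7 were higher and Clec5a was lower (-1.21 ± 0.13), and Clec4a1, of the same receptor family as Clec4a3, stood at 1.87 ± 0.06 (median 0.78, 0.23 among cells low in division genes). The G protein subunits, the family of Gngt2, showed no common direction, with 4 higher and 7 lower of 12 (median -0.27, -0.02 among cells low in division genes). Reads of near-identical members of the SIRP and lectin families can be split between copies, and their levels are uncertain to that extent.

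Cholesterol and lipoprotein genes, the setting in which Apoe works, were more often higher than lower in the members. Of 17 tested 12 were higher and 2, Fabp5 among them, lower (median 0.56), and among cells low in division genes 6 were higher and 1 lower of 17 (median 0.16). Lrp1, a receptor that takes up Apoe, was higher (1.84 ± 0.05, 0.51 among cells low in division genes), as was Npc2, which moves cholesterol out of lysosomes (0.85 ± 0.04, 0.34). Fabp5, a fatty acid binding protein, was lower (-1.63 ± 0.09, -0.60). Of 14 transcription factor genes of monocyte fate 12 were higher and Klf4 and Irf8 lower (median 0.87, 0.15 among cells low in division genes). Klf4, needed for Ly6C-high monocytes, differed by -0.74 ± 0.06 and by -0.32 among cells low in division genes, and Klf2 by 1.17 ± 0.05 and 0.14. Of 11 immediate early genes 10 were higher (median 1.26) and 8 among cells low in division genes (median 0.27); these genes also respond to the handling of cells, and their part in the result was not tested. Axl, a receptor for apoptotic cells, was higher (3.23 ± 0.21, 2.08 among cells low in division genes), and so was Hpgd, which breaks down prostaglandins (2.54 ± 0.09, 0.95).

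Neutrophil-like monocyte genes were low in the members. Of 10 genes 9 were lower and 1 higher, Srgn, which encodes the granule proteoglycan serglycin (0.71 ± 0.06), with a median of -3.75. Mpo, the myeloperoxidase of primary granules, had a lowest of 48.1, a median of 62.4 and a highest of 69.6 CPM in female members and a lowest of 757, a median of 1056 and a highest of 1385 CPM in the other cells, which did not overlap (-3.94 ± 0.07 on the log2 scale). Elane (-4.33 ± 0.06) and Prtn3 (-3.91 ± 0.06), the granule proteases, and S100a8, a subunit of calprotectin (-3.39 ± 0.12), were lower too. Among cells low in division genes 4 of 9 were lower and 1 higher (median -0.05), where Mpo stood at 0.22, Elane at -0.05, Prtn3 at -0.40 and S100a8 at -0.92. S100a8, the least lowered of these 4 genes against all other cells, was the lowest of them there.

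Of 10 monocyte identity genes 9 were higher and Irf8 lower (median 0.95, 0.17 among cells low in division genes), and of 11 egress and retention receptors 8 were higher and Cxcr4 and Ccr1 lower (median 0.88, 0.28). Of 10 genes of the mature Ly6C-high cluster 9 were higher (median 1.20), and 5 were higher and 3 lower among cells low in division genes (median 0.14). Of 12 ribosomal protein genes 11 were lower (median -0.19), and 4 among cells low in division genes (median -0.03).

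**Figure D2:**
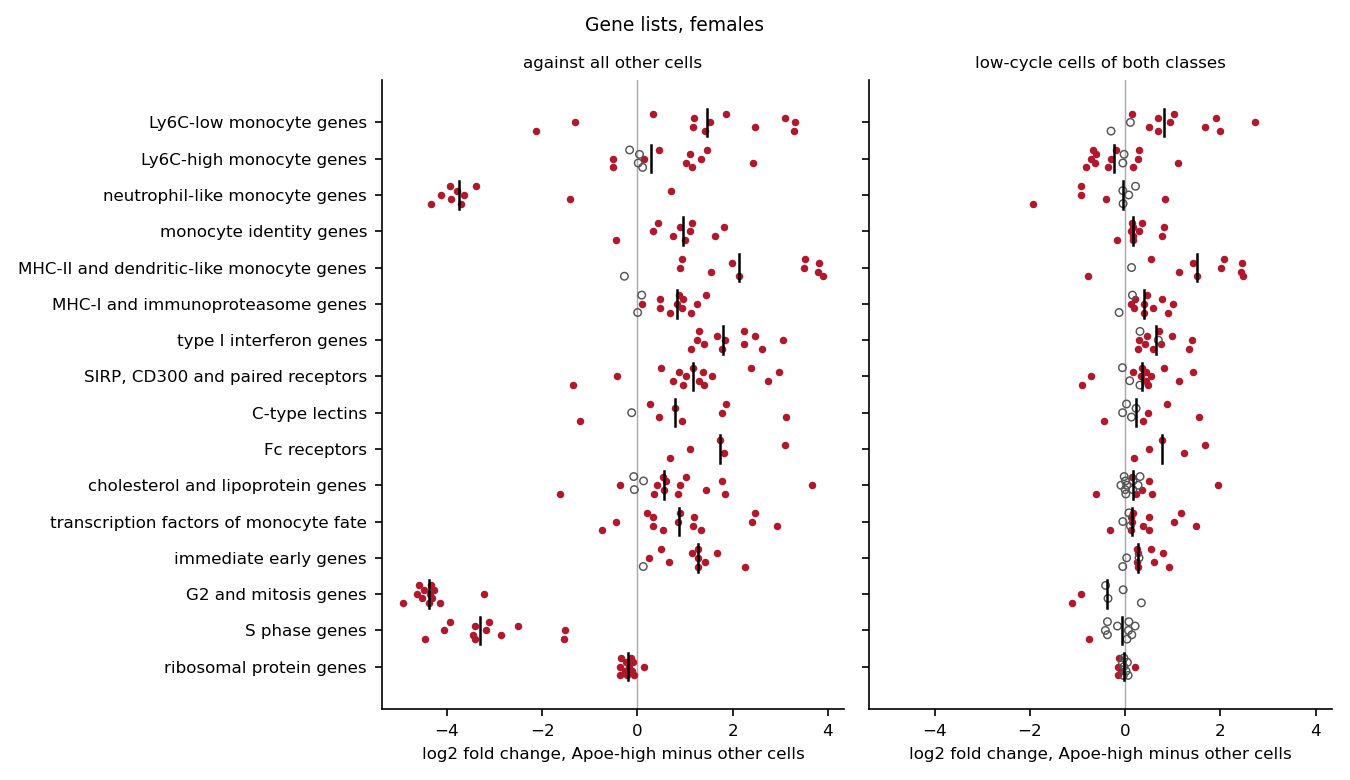
Log2 fold change of members against other cells in females (horizontal axis) for every tested gene of 16 gene lists (rows), against all other cells on the left and among cells low in division genes of both classes on the right. Red points have an adjusted p under 0.05, open points do not, and a bar marks each list's median: the G2 and mitosis median moved from -4.37 to -0.39, as the choice of cells on the right by these genes and the S phase genes fixed, and the MHCII median from 2.13 to 1.50.

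The female library also held counts of 6 surface antibodies, which the rule did not use, and these were compared as log2 counts centred within each cell over the 6 antibodies. CD11b, an integrin chain of myeloid cells, was higher in the members by 0.65 ± 0.09 (SD, n = 10 mice) and Ly6C lower by 0.66 ± 0.18 (SD), each in all 10 mice. MHCII was higher by 0.55 ± 0.53 (SD, n = 10 mice) and CD115 lower by 0.46 ± 0.16 (SD), also in all 10 mice. Each of these 4 had an exact two-sided sign-flip permutation p of 0.00195, the smallest that 10 mice can give, and an adjusted p of 0.00293 over the 6 antibodies. CD11c differed by 0.03 ± 0.13 (SD, exact permutation p = 0.479) and Flt3 by -0.10 ± 0.31 (SD, exact permutation p = 0.365). Centring makes the 6 values of a cell sum to 0, so a rise of CD11b lowers the others. On log2 counts with no centring CD115 differed by -0.01 ± 0.14 (SD; higher in 5 of 10 mice, exact permutation p = 0.91), whereas CD11b stood at 1.10, MHCII at 1.01, CD11c at 0.49, Flt3 at 0.36 and Ly6C at -0.21, and these 5 were called. Ly6C protein was thus lower in the members on either scale, while the order of CD115 depended on the scale.

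**Figure D3:**
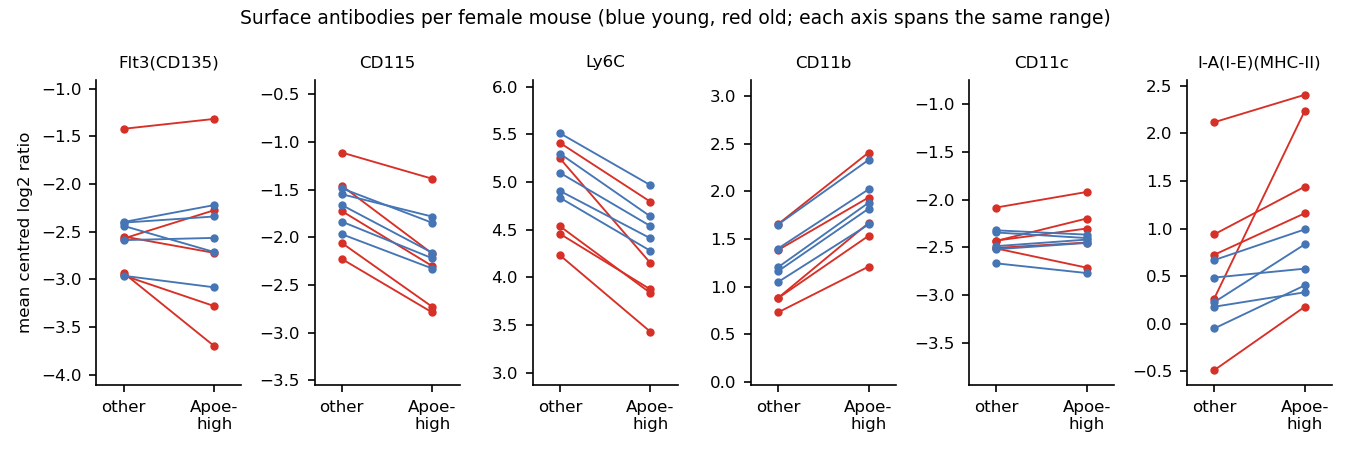
Mean centred log2 ratio (vertical axis) of 6 surface antibodies in the other cells and in the Apoe-high monocytes of each female mouse, joined by a line, with young mice in blue and old in red. All 10 lines rise for CD11b and MHCII and fall for Ly6C and CD115, and the steepest MHCII line is that of old female 2, from 0.26 to 2.24.

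The share of cells that were Apoe-high, which the rule fixed for a library but not for a mouse, did not differ between young and old mice by more than the spread between mice in either sex. It was 8.97%, 11.0%, 7.82%, 10.1% and 7.88% in the young females and 4.17%, 7.46%, 14.3%, 12.5% and 7.80% in the old females. The old females lay on both sides of the young ones, and their spread was wider, with 95% Clopper-Pearson intervals of 2.60 to 6.31% for the lowest (21 of 503 cells) and 12.2 to 16.5% for the highest (147 of 1031 cells). The means were 9.17 ± 1.41% and 9.23 ± 4.08% (SD, n = 5 each; difference 0.0642 percentage points, two-sided exact permutation p = 0.992, where 0.00794 is the smallest p that 5 against 5 mice can give). In males the shares were 9.60%, 8.21%, 13.6%, 3.94% and 12.3% in young mice and 12.1%, 11.2%, 12.1%, 0% and 10.7% in old mice, with means of 9.52 ± 3.78% and 9.24 ± 5.2% (SD, n = 5 each; exact permutation p = 0.897, adjusted over the sexes 0.992). The 0% was 0 of 49 cells of old male 4, which allows a share of up to 6.12% by a limit of 3 cells and of up to 7.25% by the two-sided 95% Clopper-Pearson interval drawn in the plot.

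Ranking on the 6 genes without Apoe gave other shares, which are described with no test. Ranked on them, the top 10% of cells made up 7.41 ± 0.953% of the cells of young females and 12.2 ± 2.52% of those of old females (SD, n = 5 each), a difference of 4.82 percentage points. In males they made up 7.06 ± 3.38% and 13.4 ± 8.72% (difference 6.38 percentage points). These shares count the rule's own genes and restate their levels by age given above, so a test of them could decide nothing further. The share by all 7 genes, some of which moved in opposite ways with age, rests on the rule's own genes too. Its tests, above and below, therefore speak only of this summed score.

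**Figure D4:**
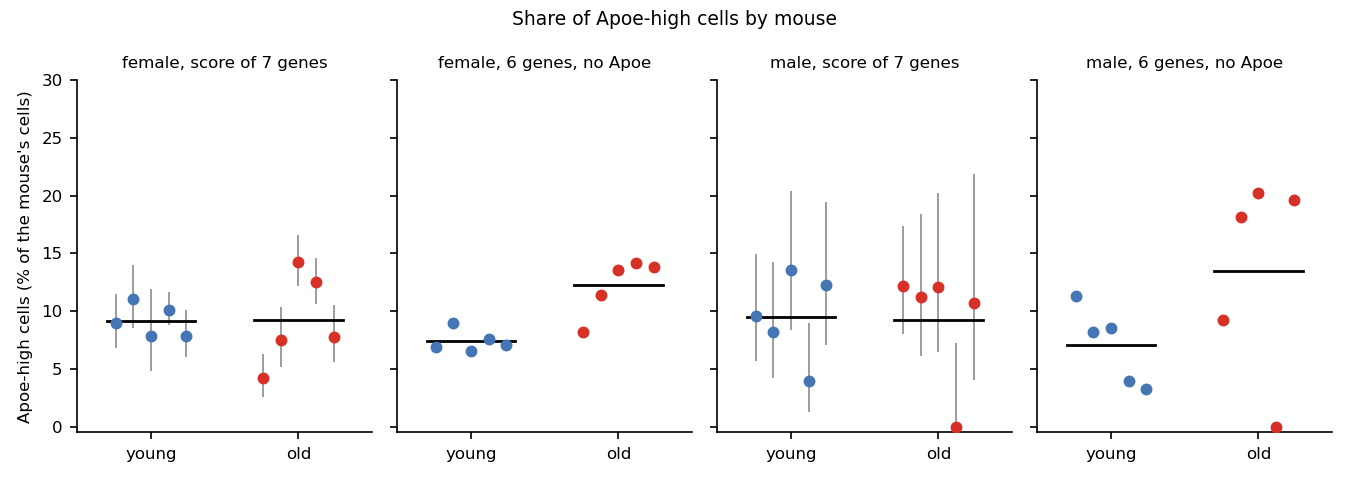
Percentage of each mouse's cells in the top 10% by score (vertical axis) for young and old mice (horizontal axis), females and males, with the 7-gene score and with the 6 genes without Apoe. Points are mice, black lines are means and grey bars are 95% Clopper-Pearson intervals for the 7-gene score; the female means are 9.17 and 9.23% with Apoe and 7.41 and 12.2% without it.

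Among the members, old and young females were compared by edgeR on the summed counts of each mouse. Depth differed by age there: the members' median was 6463 to 6790 UMIs in young females and 7009 to 9169 in old females. In the other cells it was 8902.5 to 10459 and 11125.5 to 15829 UMIs, so the ages overlapped in neither class. How far the age differences follow depth was not tested. Of 4477 genes tested 68 (1.52%) were called, 52 higher (1.16%) and 16 lower (0.357%) in old mice, and the ages did not overlap for 136 genes (3.04%), called or not. Of the antigen presentation genes, 6 of 9 tested MHCII and dendritic-like genes (median log2 fold change 1.04) were called higher in old mice. So were 5 of 11 MHCI and immunoproteasome genes (median 0.40), against a median of -0.01 over all genes. The lists were not tested as groups, and some of these calls were lost under other choices of cells, as given below. Leaving out 1 mouse at a time gave 39 to 85 called genes, with 39 without young female 1, 41 without young female 2 and 45 without young female 4. H2-Ab1, an MHCII beta chain, stood at 474, 459, 1079, 1076 and 496 CPM in the members of young females and 4087, 3777, 1084, 1485 and 1987 CPM in those of old females. Each old female was above each young one, old females 1 and 2 by far, and the log2 fold change was 1.79 ± 0.30 (SE), adjusted p = 0.00183. Cd74 stood at 2463, 3280.2, 6091, 5294 and 2906 CPM and 19183, 16028, 5528, 7874 and 9478 CPM (1.57 ± 0.26 (SE), adjusted p = 0.00165), and old female 3 lay below the highest young female. H2-Aa (1.81 ± 0.33), H2-Eb1 (2.22 ± 0.40), H2-DMa (0.55 ± 0.14), H2-Q7 (1.75 ± 0.33), H2-K1 (0.66 ± 0.10), H2-D1 (0.32 ± 0.06), B2m (0.40 ± 0.08) and the immunoproteasome gene Psmb8 (0.51 ± 0.10) rose as well. Without old female 1 the log2 fold change of Cd74 was 1.30 and that of H2-Ab1 1.53.

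The study's paper describes AW112010 as a long non-coding RNA that also holds a translated open reading frame. Among the genes called for age with ages apart, AW112010, on chromosome 19 (chr19:11047612-11055808), had the largest rise. It stood at 104, 103, 48, 142 and 48.1 CPM in the members of young females and 1100.4, 492, 374, 435 and 324 CPM in those of old females (2.26 ± 0.28 (SE), adjusted p = 5.84e-05). Ly6i, of the Ly6 family of membrane proteins, stood at 34.8, 61.8, 48, 49.4 and 43 CPM and 271, 488, 193, 133 and 181 CPM (2.20 ± 0.29 (SE), adjusted p = 1.19e-04). In both genes the ages did not overlap, and old female 1 was the highest for AW112010 and old female 2 for Ly6i. The other rises by the same rule were Ly6a (1.86 ± 0.42), Mt1, a metallothionein (1.51 ± 0.29), the interferon-inducible GTPase gene Gbp2 (1.40 ± 0.31), Sgk1 (1.23 ± 0.24), Vcan (1.08 ± 0.22) and Ifi205 (1.01 ± 0.25). Of the 12 type I interferon genes 0 were called (median 0.31), and of the 12 tested Ly6C-low genes 0 (median 0.27). Of 13 Ly6C-high genes 4 rose, among them Ly6c2 (0.40 ± 0.09 (SE), adjusted p = 0.0144) and Chil3 (0.73 ± 0.19 (SE), adjusted p = 0.0461). The cholesterol and lipoprotein list had 0 of 13 called (median 0.05) and the SIRP and CD300 list 0 of 12 (median -0.05).

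Fewer genes fell with age among the members. Hpgd stood at 270.4, 216, 304, 266 and 268 CPM in the members of young females and 38.7, 53.3, 112, 103 and 140.2 CPM in those of old females, a log2 fold change of -1.35 ± 0.16 (SE), adjusted p = 2.54e-05. Jun, an immediate early gene of the AP-1 factors, stood at 286, 361, 399.7, 289 and 473 CPM and 232, 148, 171, 184 and 154 CPM (-0.98 ± 0.14 (SE), adjusted p = 2.89e-04). All old females were below all young females for both genes. Dusp7 (-1.02 ± 0.21), Rhob (-0.78 ± 0.14), Klf4 (-0.67 ± 0.12), Kctd12 (-0.58 ± 0.12), St8sia4 (-0.49 ± 0.12), Btg2 (-0.48 ± 0.10) and Zfp36 (-0.47 ± 0.10) were other falls by the rule. Of 10 tested immediate early genes 3 fell (median -0.46), and of 13 transcription factor genes of monocyte fate 2 fell, Klf4 and Irf8. Macrophage genes moved along in some old mice, with sums of 957 and 1165 CPM in the members of old females 1 and 2 against a median of 373 CPM over all 10, and 0 of the 4 tested macrophage genes was called for age; their part in the age differences was not tested.

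Several of these age calls were lost under other choices of cells or fits. Among members within the middle 50% of depth, where old female 1 held 4 members and entered no fit, 10 of the 25 named genes tested stayed called. The MHCII genes were among those that did not, with log2 fold changes of 0.62 for Cd74, 0.73 for H2-Ab1, 0.61 for H2-Aa, 0.76 for H2-Eb1 and 0.00 for H2-DMa, and H2-D1 (0.28), Psmb8 (0.32), Ly6c2 (0.16), Chil3 (0.64), Gbp2 (0.98), Klf4 (-0.54), Dusp7 (-0.84), St8sia4 (-0.35), Btg2 (-0.33) and Zfp36 (-0.30) were not called either. These 5 MHCII genes were all called when old female 1 alone was left out at all depths. With the top 5% of cells 14 of 23 stayed called, and B2m (0.31), Gbp2 (1.16), Chil3 (0.75), Klf4 (-0.37), Rhob (-0.84), Kctd12 (-0.62), St8sia4 (-0.48), Btg2 (-0.51) and Zfp36 (-0.46) did not. In thinned cells 14 of 21 stayed called, and H2-DMa (0.39), Psmb8 (0.29), Ly6c2 (0.36), Rhob (-0.06), Kctd12 (-0.52), Btg2 (-0.38) and Zfp36 (-0.43) did not. In HTODemux singlets H2-Aa (1.37), H2-Eb1 (1.63), H2-DMa (0.35), Ly6a (0.68), Ly6c2 (0.39) and St8sia4 (-0.42) were not called, and with hashtags of at least 90% H2-DMa (0.39), Chil3 (0.72), Klf4 (-0.52), Kctd12 (-0.61) and St8sia4 (-0.27) were not. With members chosen on the 6 genes without Apoe, Ly6a (1.80), Ifi205 (0.92), Dusp7 (-0.63) and Kctd12 (-0.33) were not called. The call of Ifi205 was also lost with the top 20% of cells (0.62) and with a block by mouse number (0.89), and that of Chil3 in DESeq2 (0.80). All these values are log2 fold changes of old against young, several of them, such as those of Ly6c2 in HTODemux singlets and Rhob with the top 5%, about as large as reported above. AW112010, Ly6i, Hpgd and Jun stayed called under each of these choices.

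**Figure D5:**
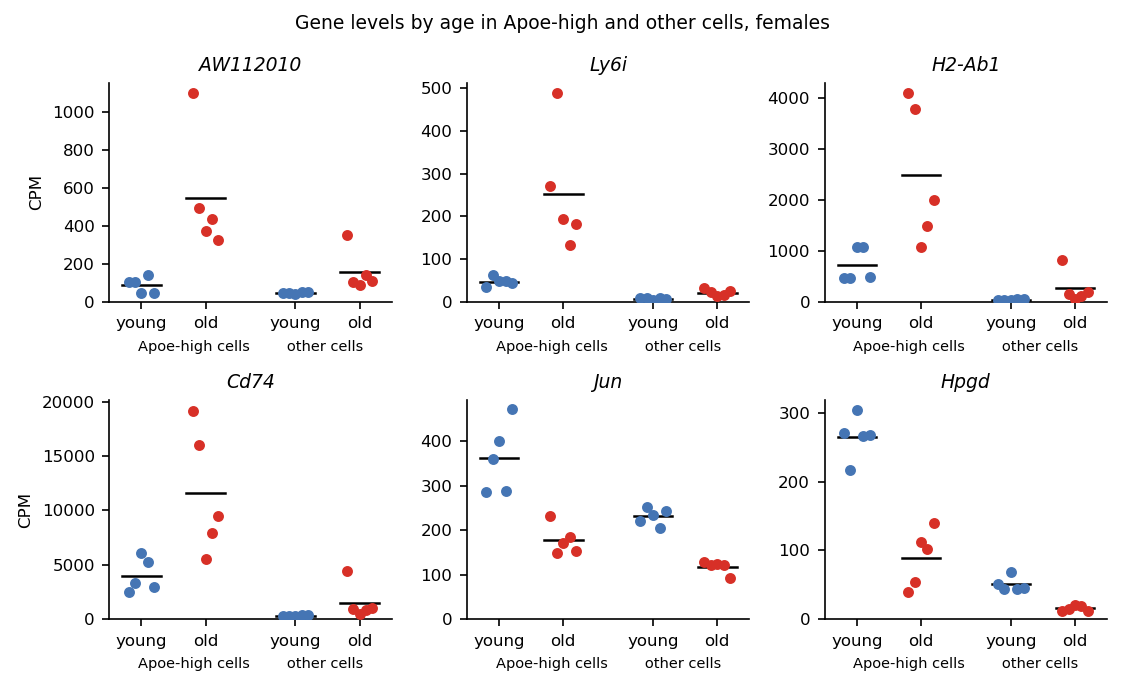
Level in CPM (vertical axis) of AW112010, Ly6i, H2-Ab1, Cd74, Jun and Hpgd in the Apoe-high monocytes and the other cells of young and old females; points are mice and black lines are means. In the Apoe-high monocytes AW112010, Ly6i and H2-Ab1 were higher in each old mouse than in any young mouse, Jun and Hpgd were lower, and Cd74 overlapped.

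The other cells of the same females changed with age too, with 559 of 10309 genes called (5.42%), 274 higher (2.66%) and 285 lower (2.76%), in deeper sums. There AW112010 stood at a log2 fold change of 1.72 ± 0.31, H2-Ab1 at 2.67 ± 0.55, Cd74 at 2.28 ± 0.47, Jun at -0.97 ± 0.08 and Hpgd at -1.60 ± 0.15; members and other cells share their mice, so these values stand beside those of the members and are no repeat of them. The difference between the age effects of the classes was tested by an interaction term with the mouse as a block and was called for 3 of 9062 genes (0.0331%), all with a larger rise in members. Cxcl9, an interferon-gamma-induced chemokine, stood at 0, 0, 0, 1.65 and 2.53 CPM in the members of young females and 116, 94.3, 46.5, 6.1 and 2.75 CPM in those of old females, with old females 1, 2 and 3 far above the rest (interaction 4.37 ± 0.80 (SE)). No sum of young mice, in either class, reached the level that the filter on low counts asks for. Cxcl9 was thus tested only through old mice, where it is high, and its call is no result. The members of young females held at most 2 UMIs of it, so the size depends on the prior count of the fit, and among the young sums of other cells in the same fit young female 4 held 102 UMIs and the others at most 8. Without young female 4 the interaction was 2.78 (adjusted p = 0.938). AW112010 (0.75 ± 0.16 (SE), adjusted p = 0.044) and H2-DMa, which helps load peptides onto MHCII (0.44 ± 0.09 (SE), adjusted p = 0.044), were the others. In thinned cells the interaction was 0.07 for AW112010 and 0.21 for H2-DMa, with the top 5% of cells it was 0.40, 0.49 and, for Cxcl9, 3.23, and with the top 20% that of Cxcl9 was 1.15, and none of these was called. The call of AW112010 was also lost without young female 1, young female 5 or old female 3, and that of H2-DMa without young female 1, 2 or 5 or old female 1. DESeq2 called 0 genes for this interaction, with 228 genes at an unadjusted p under 0.05 against 481 in edgeR. Leaving out 1 mouse at a time gave 1 to 12 called genes in edgeR, with 1 without young female 1 or 5, 5 without young female 3, 6 without old female 5, 7 without old female 3 and 12 without old female 4. In males 18 of 5596 genes (0.322%) were called for age in the other cells and 0 of 3155 (0%) for the interaction. For the surface antibodies 0 of 6 were called for age among the members. MHCII stood at 0.33, 0.40, 0.83, 0.99 and 0.58 in the centred ratio of young females and 2.40, 2.24, 0.18, 1.16 and 1.44 in that of old females (exact permutation p = 0.0873, adjusted 0.262), with old female 3 below all young females; without that mouse MHCII (a difference of 1.18) and Ly6C (-0.74) were both called (exact permutation, adjusted p = 0.0238 each) and the ages did not overlap. Ly6C stood at 4.57 ± 0.262 and 4.02 ± 0.505 (SD, n = 5 each; exact permutation p = 0.0635, adjusted 0.262).

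In male members edgeR called 0 of 711 tested genes (0%) for age, with 61 at an unadjusted p under 0.05, and DESeq2 called 0; the sums came from 5 to 25 cells a mouse. Without old male 1 edgeR called 18 genes, without old male 3 it called 6 and without young male 5 it called 5. The ages did not overlap for 11 genes (1.55%). H2-Eb1, an MHCII beta chain, had the lowest adjusted p (3.34 ± 0.67 (SE), adjusted p = 0.0742). AW112010 stood at 171, 352, 46.7, 827 and 86.7 CPM in the 5 young and 469, 2934, 1145 and 819 CPM in the 4 old males with members (2.73 ± 0.59 (SE), adjusted p = 0.0834), and the highest young male lay above the lowest old male. Jun was -1.38 ± 0.32 and Cd74 1.71 ± 0.43 on the log2 scale, with adjusted p of 0.0951 and 0.0951. Whether the age effects of the sexes differ was not tested gene by gene. The age difference in the share of cells was 0.352 percentage points higher in females than in males (permutation of ages within each sex, p = 0.919).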

How the data were processed

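Bone marrow classical monocytes of 20 mice were measured in 2 libraries, 1 for each sex, by droplet single-cell RNA sequencing with hashtags. The counts used here are the UMI counts per gene, hashtag and surface antibody in each cell barcode that the authors deposited; the study's methods name Cell Ranger 4.0.0 with STAR 2.5.1 and the mm10 genome, and the file headers name Cell Ranger 3.1.0 (female) and 7.0.0 (male). Cells under the 70% hashtag threshold, as doublets between mice would be, were left out (2406 of 9898 female and 1 of 1227 male cells), doublets within a mouse stayed in, and no doublet caller was run; HTODemux (Seurat 5.3.0), which kept 6641 female and 826 male singlets, was the alternative. The leading hashtag was weaker in old females: its median share in the other cells was 90.0 to 93.5% in young and 84.6 to 89.9% in old females. In the members it was 92.5 to 95.6% and 88.7 to 93.1%. At 90% or more, old female 5 kept 72 of 500 cells and 7 of 39 members. How this bears on the age comparisons was not tested. The methods' own clusters were not used, and the members were taken by the score alone.

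Counts were summed per mouse and class, mice with under 5 members were left out, and edgeR 4.0.16 (TMM scaling, filterByExpr, quasi-likelihood test, Benjamini-Hochberg adjustment) was fitted in each sex, with DESeq2 1.42.0 as an alternative, after the code had been tested on simulated data. Shares and antibodies were tested over mice by exact two-sided permutation (scipy 1.17.1); antibody counts were taken as log2 of the count plus 1. Members against other cells are blocked by mouse because both sums come from 1 animal; the mouse numbers of young and old mice only name them. Genes named for a comparison were the 10 largest rises and falls past the threshold, in every mouse of both sexes and with a mean of at least 20 CPM for the class comparison and with ages apart for age, together with the 4 most abundant genes of each list and 18 genes of fixed interest; further genes were chosen after their values were seen. Some genes that these rules take are not reported here. The members and lists were chosen with earlier results of these data known. Gene positions are from GENCODE vM21 (GRCm38).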

Additional observations from a re-analysis of the deposited data

Results flagged for a closer look

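Each group of 4 or 5 mice was searched for a mouse far from the others: 100 groups were tested and 12 held one, where chance gives about 5%. Of old male 4, 0% of cells were Apoe-high, against 10.7 to 12.1% in the other old males. In the members of young female 2 the centred log2 ratio of CD11c was -2.77, against -2.45 to -2.37 in the other young females. The members of the same mouse held Apoe at 4937 CPM (others 4469 to 4589) and Dusp7 at 74.7 CPM (others 52.7 to 56.0). In the members of old female 1 AW112010 stood at 1100.4 CPM (other old females 324 to 492), Gbp2 at 371 CPM (68.7 to 120.0) and H2-DMa at 962 CPM (468 to 578). In the members of old female 2 Gngt2 stood at 1369.8 CPM (641 to 844), and in those of young female 4 H2-DMa stood at 482 CPM (381 to 399.6). In males, Gngt2 in the members of young male 1 was 1286 CPM (628 to 810.1 in the other young males) and Rhob 257 CPM (63.6 to 93.5), and Ly6i in the members of young male 4, which were 5 cells, was 127 CPM (0 to 25.2).

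For 3 genes edgeR called a difference between the age effect of the female members and that of the other cells of the same mice: Cxcl9 by 4.37, AW112010 by 0.75 and H2-DMa by 0.44 on the log2 scale. Cxcl9 was tested only through old mice, where it is high, so its call is no result. It had at most 2 UMIs in the members of any young female and, among the other cells of young females, 102 of its UMIs in young female 4 against at most 8 elsewhere, so its value is no measure of size, and it fell to 2.78 (adjusted p = 0.938) without young female 4. DESeq2 called 0 of the 3. In thinned cells AW112010 fell to 0.07 and H2-DMa to 0.21, and neither was called. With the top 5% of cells AW112010 fell to 0.40 and H2-DMa stood at 0.49, again not called. Both calls were also lost when certain single mice were left out, as given above.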

How the results depend on the processing

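Counts of called genes for members against other cells changed by more than 1.5 times, in females from 5274, when cells were thinned to 2000 UMIs (2163) and, as alternatives chosen after seeing the data, in cells low in division genes (1428) and in the members' range of depth (819). In males, from 973, they changed with no filter on low counts (1943), members chosen on 50% of the UMIs (480), thinned cells (372), cells low in division genes (157) and the range of depth (54). The latter settings also test fewer genes in fewer cells and mice: the range of depth left out old female 1 and 4 of the 10 males, and the other settings named for males, apart from no filter, left out 2 each, where 1, old male 4, was left out as reported. Leaving out 1 mouse gave 4932 to 5517 in females and 806 to 1121 in males, and dropping the mouse as a block changed neither count by over 1.5 times. Genes that changed sign in females were Chil3 (-0.50 in the range of depth, -0.29 in cells low in division genes and -0.000432 with the top 5%), Vcan (-0.63 and -0.81), Mpo (0.21 and 0.22), Cxcr4 (0.14), Rrm2 (0.21) and Top2a (0.34) in cells low in division genes, and Cd209a (0.29 with hashtags of at least 90% and 0.10 with the top 5%). Rrm2 and Top2a are division genes, so their change goes with the choice of those cells and is no result.

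For old against young female members, 68 genes became 27 in the range of depth (also without old female 1, whose loss alone gave 54), 34 with hashtags of at least 90%, 169 with no filter, 30 in thinned cells, 176 with the top 20% and 26 with the top 5%, and leaving out 1 mouse gave 39 to 85; of the named genes tested, 15 of 25, 5 of 24, 7 of 21 (thinned cells) and 9 of 23 (top 5%) lost their call. In males 0 became 1 with HTODemux or without Apoe, 13 with no filter, 9 with the top 20% and 2 with the replicate block, and leaving out 1 mouse gave 0 to 18. That block pairs young and old mice by number, which only names them; in females it gave 73 called genes. The 3 genes of the interaction became 0 in DESeq2, 23 with no filter, 6 in thinned cells (2 higher and 4 lower, and neither AW112010 nor H2-DMa, with Cxcl9 not tested) and 7 with the top 20% (Cxcl9 not among them), while with the top 5% the calls of all 3 were lost and 3 other genes were called, 1 higher and 2 lower, and leaving out 1 mouse gave 1 to 12.

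The age difference in the share of Apoe-high cells, 0.0642 percentage points in females, turned to -0.258 with HTODemux, -0.254 in thinned cells, -0.227 with the top 20% and -0.190 with the top 5%. Without a gene of the score it was -1.45 (Gngt2), -0.334 (Pla2g7), -0.404 (AF251705), -0.0968 (Sirpb1c), -0.00542 (Tppp3) and 4.82 (Apoe, given with no test), and it rose to 6.86 in the range of depth, 3.32 with hashtags of at least 90% and 1.97 in cells low in division genes. In males it turned from -0.288 to 0.644 with HTODemux, 0.142 with hashtags of at least 90%, 1.68 with the top 20%, 6.38 without Apoe, 0.0209 without Tppp3, 5.47 in cells low in division genes and 22.5 in the range of depth (exact permutation p = 0.0397, adjusted 0.0794). There old male 3 had 5 of 6 cells in the class and old male 4 no cells, and without old male 3 the difference was 7.53 (adjusted p = 0.196 by exact permutation). Leaving out 1 mouse gave -1.19 to 1.33 in females and -1.68 to 2.02 in males. The difference between the sexes, 0.352, turned to -0.903 with HTODemux, -15.6 in the range of depth (-0.668 there without old male 3), -3.50 in cells low in division genes, -1.56 without Apoe, -0.0263 without Tppp3, -0.0587 in thinned cells and -1.90 with the top 20%. The causes of these changes were not tested.

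The 4 surface antibodies called between the classes stayed 4 whichever mouse was left out, and became 5 on log2 counts; CD11c turned to -0.0349 with the top 20% and Flt3 to 0.36 on log2 counts. For age among members 0 to 2 were called when 1 mouse was left out, the 2 being MHCII and Ly6C without old female 3. There CD115 (0.11) and CD11b (0.13) changed sign on log2 counts, and Flt3 turned to 0.24 on log2 counts, 0.0117 with the hashtag in the centring and 0.0295 with the top 20%, and ranged from -0.41 to 0.19 when 1 mouse was left out, above 0 without old female 2, old female 3 or young female 5.

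Members were 123 cells in males and 750 in females, and 711 and 4477 genes passed the filter for age. Levels are relative to all UMIs of a class, the score was cut within a continuous range, and p-values measure the spread between mice of 1 library.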
